A study of Rattus norvegicus with 6 samples.

Results

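Apart from Psmc3ip, the genes described here encode the proteasome and the proteins that build or regulate it. They were taken by name, as protein-coding gene models with a symbol that starts with Psma to Psmg and a digit, and 48 of the 33350 gene models in the deposited table met that rule. RNA had been sequenced from 6 libraries of cells labelled PC12, a rat line derived from an adrenal pheochromocytoma. In the 3 libraries called EC the cells had received exosomes, small membrane vesicles released by cells, from control endothelial cells. In the 3 called EN the exosomes were loaded with netrin-1 (NTN1), a secreted guidance protein, and came from endothelial cells that express it highly. Dose and time of exposure were not given in the sources used here, nor whether the 3 replicates of a group were separate cultures, so p-values speak only of the spread among these libraries, which could be technical. In such bulk libraries, fewer cells that express a gene and less of its RNA per cell cannot be told apart.

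The proteasome degrades proteins tagged with ubiquitin. Its barrel-shaped core is made of outer alpha rings (Psma genes), which gate the entrance, and inner beta rings (Psmb genes), which hold the proteolytic sites. A regulatory cap sits on the barrel: the base unfolds substrates with a ring of ATPases (Psmc genes), and the lid holds the enzyme that removes the ubiquitin chain. Other caps (Psme genes) can take the place of this one, Psmf1 binds the core as a regulator, immune-type beta subunits can replace the standard catalytic ones, and dedicated chaperones (Psmg1 to Psmg4, Psmd5, Psmd9 and Psmd10) assist assembly. Cells coordinate many of these genes through NRF1 (Nfe2l1), a transcription factor that is itself a proteasome substrate.

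Values are FPKM, which divides the reads of a gene by its length and by the size of the library, so that levels can be compared between genes. The reads behind them came to 15296193 to 19626012 per library, and the shallowest EN library was deeper than the deepest EC library. In a chi-square comparison of reads over genes, EN replicate 3 stood further from EN replicates 1 and 2 (8.98 and 6.50 per degree of freedom) than these did from each other (3.82), and it was the EN library nearest to each EC library. Pairs of EC libraries were at 3.83 to 5.52. Mitochondrial genes took 5.43 to 6.09% of reads in EC and 4.40 to 5.50% in EN. Of 13 chromaffin marker genes, which the cell type on the labels would be expected to show, 3 had a mean of at least 1 FPKM. Their summed level was 67.3 to 72.5 FPKM in EC and 68.4 to 73.9 in EN, most of it Scg2, and Pnmt and Hand2 had no read in any library, so the defining markers of that cell type were mostly absent. Of the 11 Schwann cell markers found in the table, 9 reached 1 FPKM, with sums of 467.9 to 477.8 FPKM in EC and 414.2 to 447.4 in EN. For 9 leukocyte markers, a list that bears on the immune-type subunits, the sum was 4.33 to 5.47 FPKM in EC and 4.41 to 5.52 in EN. Most of that sum was Cd68 (mean 4.19 FPKM, 524 reads over all libraries), while Ptprc and Itgam had 2 reads each over all libraries. Endothelial markers summed to 9.73 to 11.7 FPKM in EC and 13.1 to 13.9 in EN. Of the 10 that were measured, 4 averaged at least 1 FPKM: Egfl7 (5.1), Flt1 (3.6), Tie1 (1.7) and Tek (1.2). Kdr had 1 read over all libraries and Cldn5 none. The part of these differences in the results below was not tested.

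Most proteasome genes differed little between EN and EC, and 1 gene stood out, the lid deubiquitinase gene Psmd14, whose mean level was 1.92-fold lower in EN. Of the 48 genes, 45 averaged at least 1 FPKM and were tested (limma on log2(FPKM + 1), Benjamini-Hochberg adjusted p under 0.05 over all 12198 genes tested). Among these 45, 3 were higher in EN (Psmb6, Psmd3 and Psmd4) and 8 were lower (Psma1, Psma3, Psma6, Psmb2, Psmd14, Psme4, Psmg1 and Psmd5), while 34 did not pass. That is 24.4% past the threshold, against 14.4% of all genes tested (7.24% higher and 7.14% lower). The values of EN and EC did not overlap for 26 of the 45 (57.8%), 11 with EN above and 15 with EN below. Of all genes tested, whatever their abundance, 37.9% did not overlap. Proteasome genes are abundant, and abundant genes pass more often: 26.2% of the 42 members with a mean of at least 20 FPKM passed, against 23.9% of all genes at that level. The share of members past the threshold was thus near the background for genes of their abundance. Their median log2 change was 0.01, and that of all genes tested was -0.00. These totals include Psmc3ip, which is no part of the proteasome. Without it, 44 genes were tested, 10 had EN above and the median was -0.008. The median size of the change, without its sign, was 0.12 in the members and 0.13 in all genes. Of the 11 members past the threshold, 10 changed by less than 0.3 on the log2 scale. Summed over all 48 genes, the level was 3870, 3879 and 3861 FPKM in EC replicates 1 to 3 and 3781, 3767 and 3865 FPKM in EN replicates 1 to 3, with EN replicate 3 inside the range of EC, and the mean dropped by 1.70%. Log2 changes here are differences of mean log2(FPKM + 1), a scale on which changes of low genes look smaller than they are, and folds are ratios of mean FPKM. Leaving out 1 library ended most of these calls: Psmd14 alone passed with each of the 6 libraries left out in turn, although all 11 kept the direction of their change in each such fit. Calls over all genes fell as well, to 143 to 182 higher and 180 to 269 lower when EC replicate 2 or 3 or EN replicate 1 or 2 was left out. Without any single one of EC replicates 2 and 3 and EN replicates 1 and 2, no member was higher. The number of lower members was then 1 (EC replicate 2 or EN replicate 2 left out) or 2 (EC replicate 3 or EN replicate 1 left out). Without EN replicate 3, 1 was higher and 11 were lower. With no filter on low genes 3 members were lower and 0 higher, and without the variance trend 2 were lower and 0 higher.

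**Figure D1:**
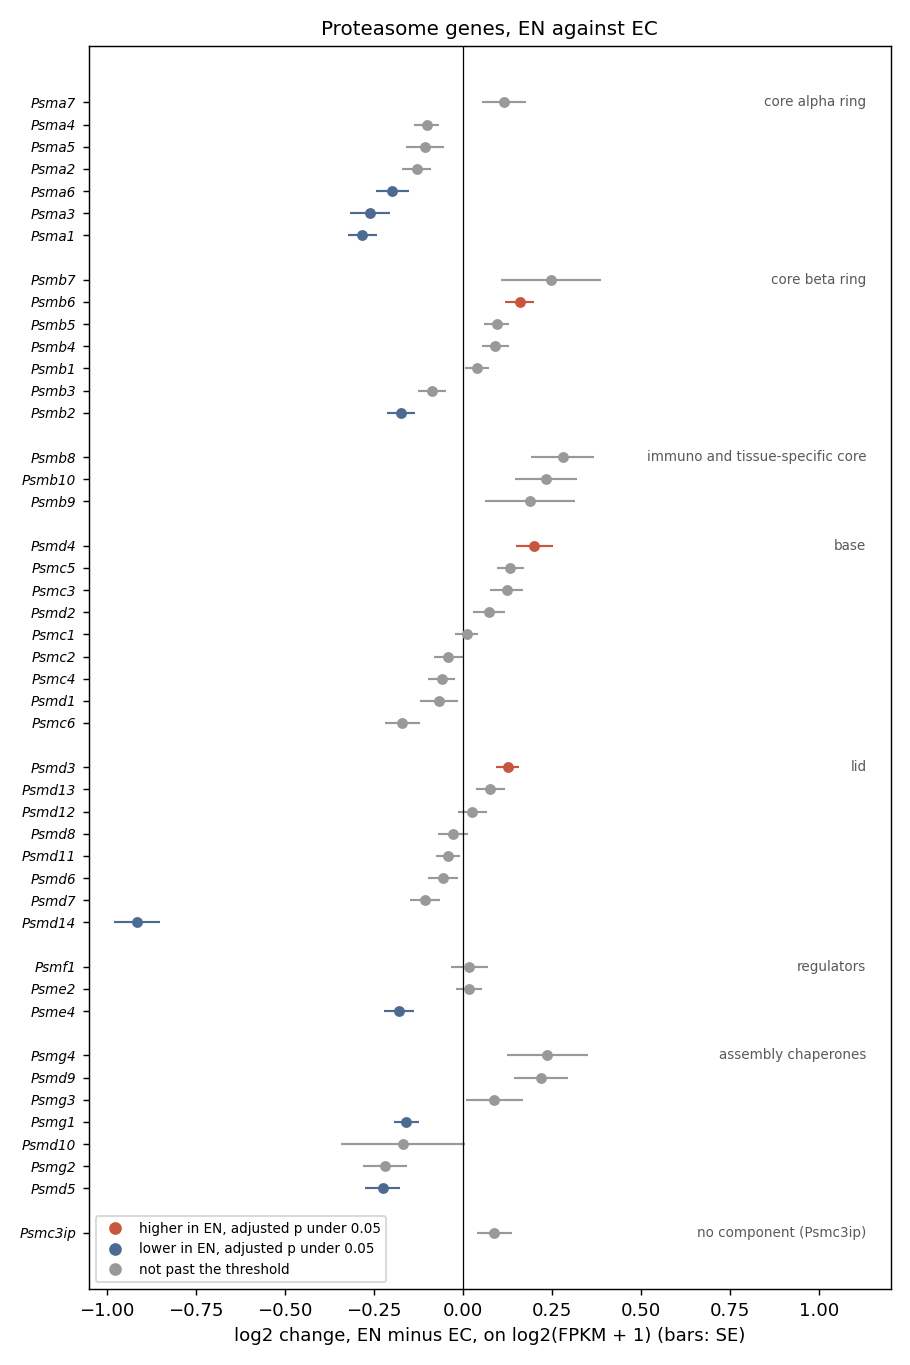
Log2 change of each of the 45 tested genes, EN minus EC on log2(FPKM + 1), with standard errors as bars, grouped by the part of the complex the product belongs to. Colour marks the test result. Psmd14 lies at -0.91, and every other gene lies between -0.28 and 0.28.

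Promoter sequences are shown for a pair of core genes that fell (Psma1 and Psma3) and a pair of genes that rose (Psmb6 in the core and Psmd3 in the lid), because both directions occur within a gene family known for shared control. They run from 250 bases before to 50 after the transcription start, 5′ to 3′ on the gene's strand, from RefSeq on build GRCr8: chr1:177887808-177888107 (- strand) for Psma1, chr6:95219499-95219798 (+ strand) for Psma3, chr10:55737638-55737937 (+ strand) for Psmb6, chr10:84139688-84139987 (+ strand) for Psmd3. Capitals mark matches on either strand to TGACNNNGC, a form of the antioxidant response element that NRF1 and related factors can bind, or to CCAAT, the CCAAT box. In these 4 windows no match to one motif overlapped a match to the other.
Psma1: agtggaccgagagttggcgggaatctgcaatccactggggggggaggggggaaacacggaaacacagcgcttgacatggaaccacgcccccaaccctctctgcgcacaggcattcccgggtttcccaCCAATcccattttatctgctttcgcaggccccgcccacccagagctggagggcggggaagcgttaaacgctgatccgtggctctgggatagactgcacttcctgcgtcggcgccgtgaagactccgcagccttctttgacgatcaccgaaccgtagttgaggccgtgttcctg
Psma3: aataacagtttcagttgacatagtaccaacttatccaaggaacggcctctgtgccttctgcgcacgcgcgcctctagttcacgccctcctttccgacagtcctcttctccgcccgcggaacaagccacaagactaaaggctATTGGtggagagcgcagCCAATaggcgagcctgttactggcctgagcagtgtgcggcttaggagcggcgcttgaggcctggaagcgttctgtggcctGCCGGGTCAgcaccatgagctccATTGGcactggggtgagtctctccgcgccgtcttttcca
Psmb6: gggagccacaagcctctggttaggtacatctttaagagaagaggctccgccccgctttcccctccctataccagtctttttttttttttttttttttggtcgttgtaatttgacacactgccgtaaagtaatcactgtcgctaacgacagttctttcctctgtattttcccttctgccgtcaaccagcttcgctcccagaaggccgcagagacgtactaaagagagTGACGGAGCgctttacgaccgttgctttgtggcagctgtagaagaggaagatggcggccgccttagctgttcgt
Psmd3: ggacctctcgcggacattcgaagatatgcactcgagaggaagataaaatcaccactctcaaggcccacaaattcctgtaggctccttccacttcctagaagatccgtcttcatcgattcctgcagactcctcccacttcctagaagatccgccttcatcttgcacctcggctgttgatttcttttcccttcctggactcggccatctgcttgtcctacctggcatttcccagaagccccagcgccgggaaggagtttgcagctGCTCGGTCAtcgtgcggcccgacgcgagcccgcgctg

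Psma1 holds 1 CCAAT match, at bases 128 to 132 of the window. Psma3 holds 3 CCAAT matches and 1 TGACNNNGC match, the latter at bases 239 to 247, just before the start. In Psmb6 and Psmd3 the only match is to TGACNNNGC, at bases 227 to 235 and at bases 264 to 272. Promoters of this kind were matched by symbol for 43 of the 48 genes. Psmd14 was not among the 43, so the motif counts do not cover it. TGACNNNGC occurred in 8 of these 43 (18.6%), against 12.1% of all 33469 promoters of the same length, and CCAAT in 21 of 43 (48.8%), against 37.5%. The TGACNNNGC matches fell on genes of both directions: 2 of the 3 genes that rose (Psmb6 and Psmd3) and 3 of the 7 matched genes that fell (Psma3, Psmb2 and Psme4). CCAAT was found in 1 of those 3 and in 3 of those 7. These matches are letters in a window and were not tested as sites.

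The alpha ring, which forms the gate of the core, was the class with the most genes lower in EN. Of its 7 genes, 3 fell, 0 rose and 4 did not pass (limma). Among all genes tested 7.14% fell, and 23.9% of those averaging at least 20 FPKM passed in either direction. At an unadjusted p under 0.05, which 16.1% of all genes tested passed as higher and 16.2% as lower, 5 were lower and 0 higher. Limma voom on the reads, which called 11.4% of all genes higher and 7.84% lower, called 3 lower and 0 higher here. The unadjusted and voom shares, here and below, are over genes of any abundance, and abundant genes pass more often. The class had a median log2 change of -0.13 (-0.17 to -0.11 over all alternative settings, against -0.00 for all genes tested). Psma1 (chromosome 1, 183733567 to 183744586, Rnor_6.0) was at 158.6, 166.3 and 170.9 FPKM in EC replicates 1 to 3 and at 132.3, 135.6 and 139.2 FPKM in EN replicates 1 to 3. The groups did not overlap, and the lowest EC library was above the highest EN library by more than the range of the EN libraries. The EC and EN means were 165.3 ± 6.24 and 135.7 ± 3.44 FPKM (SD, n = 3 each), and the log2 change was -0.28 (SE 0.041, limma adjusted p = 0.010). Without EC replicate 2 the adjusted p was 0.051 and without EN replicate 2 it was 0.052, at log2 changes of -0.28 in both fits.

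Psma3 (chromosome 6, 93423002 to 93444240) had 74.9, 83.1 and 80.7 FPKM in EC and 64.2, 64.3 and 70.3 FPKM in EN, replicates 1 to 3 in that order here and below. All EN libraries were below all EC libraries, with a gap of a few FPKM between EC replicate 1 and EN replicate 3. The log2 change was -0.26 (SE 0.056, limma adjusted p = 0.028). Psma6 (chromosome 6, 76174452 to 76205426), the most abundant of the 48 genes, was at 204.3, 211.1 and 216.9 FPKM in EC and 182.4, 175.5 and 193.2 FPKM in EN. It too was lower in every EN library than in any EC library, and it fell by 0.20 on the log2 scale (SE 0.046, limma adjusted p = 0.034). Neither gene passed when EC replicate 2 or 3 or EN replicate 1 or 2 was left out, where the highest limma adjusted p was 0.101 for Psma3 and 0.117 for Psma6. Without the low-value filter they were at 0.059 and 0.069, and without the variance trend at 0.058 and 0.073.

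The 4 alpha genes that did not pass had log2 changes of -0.13 (Psma2), -0.10 (Psma4), -0.11 (Psma5) and 0.12 (Psma7). Psma2 and Psma4 were lower in each EN library than in any EC library, whereas Psma5 and Psma7 overlapped between the groups. In all, 5 of the 7 genes were below in every EN library (19.4% of all genes tested) and none was above (18.6%). These shares too are over genes of any abundance. Levels within the ring ran from 72.9 FPKM (Psma3) to 197.2 FPKM (Psma6), although each product occurs once per ring. The table gives Psma3 a length of 3559 bases and the other 6 genes 874 to 1174 bases, and FPKM divides by that length.

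The beta ring, which carries the catalytic sites, moved in both directions. Of 7 standard genes 1 rose, 1 fell and 5 did not pass (limma), with a median log2 change of 0.09 (0.05 to 0.12 over the alternatives). Among all genes tested 7.24% rose and 7.14% fell, and 23.9% of those averaging at least 20 FPKM passed in either direction. Psmb6, which encodes the caspase-like catalytic subunit (chromosome 10, 57131386 to 57133637), was at 92.6, 88.2 and 88.7 FPKM in EC and at 98.1, 98.9 and 104.6 FPKM in EN. The EN libraries were all above the EC libraries, by 0.16 on the log2 scale (SE 0.041, limma adjusted p = 0.044). Psmb2, which encodes a non-catalytic subunit (chromosome 5, 144701949 to 144734257), was at 126.7, 136.5 and 132.1 FPKM in EC and at 114.7, 116.0 and 119.1 FPKM in EN. Here every EN library was below every EC library, and it fell by 0.17 on the log2 scale (SE 0.039, limma adjusted p = 0.032).

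Both beta calls were lost in fits with fewer libraries, while the log2 changes stayed between -0.20 and -0.15 for Psmb2 and between 0.13 and 0.18 for Psmb6. Psmb2 was lost with any one of the same 4 libraries left out (limma adjusted p up to 0.116). Without the filter Psmb2 was at 0.055 and Psmb6 at 0.068, and without the variance trend at 0.073 and 0.089. Psmb6 passed only without EC replicate 1 (0.047) and not in the 5 other such fits, with up to 0.147 without EC replicate 2. With quantile normalization Psmb6 was at an adjusted p of 0.0503, and with each library's trend with gene length removed at 0.152. Among the rest, the genes for the chymotrypsin-like subunit (Psmb5) and for Psmb4 were above in each EN library without passing, at log2 changes of 0.09 each. Psmb5 was at 88.4, 89.1 and 88.3 FPKM in EC and 92.2, 97.7 and 94.3 FPKM in EN. Psmb4 was at 169.8, 170.5 and 167.4 FPKM in EC and 175.1, 178.3 and 187.6 FPKM in EN. These are steps of a few percent, and for Psmb4 EN replicate 3 lay furthest from EC. Psmb3 was below in each EN library (log2 change -0.09, adjusted p = 0.178), and Psmb1 overlapped (0.04). Psmb7, for the trypsin-like subunit, was at 30.7, 44.9 and 43.4 FPKM in EC and 44.5, 44.9 and 50.8 FPKM in EN. EC replicate 1 was the low library, the groups overlapped, and the log2 change of 0.25 had an SE of 0.141. The gene model of Nek6 on the other strand overlaps Psmb7 over 17494 bases. It averaged 57.4 ± 0.683 FPKM in EC and 59.9 ± 1.45 FPKM in EN (SD, n = 3 each; named after its values were seen). Whether reads were counted by strand was not given in the sources used here, and whether exons of the pair overlap was not examined. Any reads from shared exons could therefore not be told apart.

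Summed over their 7 genes, the alpha ring stood at 953.6, 972.6 and 980.7 FPKM in EC and at 887.2, 860.5 and 897.3 FPKM in EN. The beta ring stood at 813.9, 819.2 and 820.7 FPKM in EC and at 820.1, 830.0 and 852.2 FPKM in EN. The alpha sum was lower in each EN library and its mean dropped by 9.01%, while the beta sums of the groups overlapped. The ratio of the alpha to the beta sum was 1.17, 1.19 and 1.195 in EC and 1.08, 1.04 and 1.05 in EN, with no overlap. These sums are descriptions over genes of unequal abundance and carry no test.

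**Figure D2:**
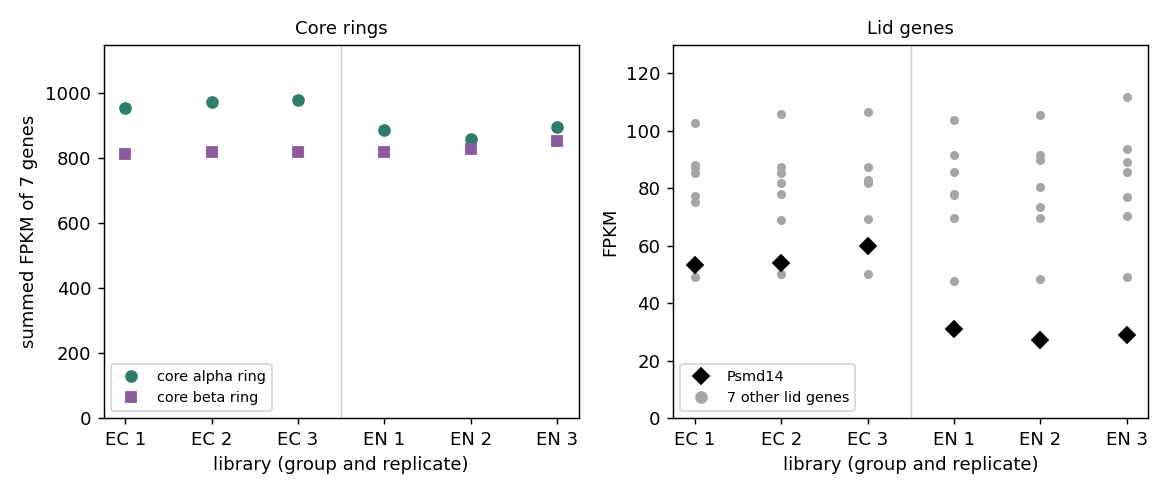
Left, summed FPKM of the 7 alpha ring genes and the 7 standard beta ring genes in each library. Right, FPKM of the 8 lid genes in each library, with Psmd14 as black diamonds. The alpha sums lie at 953.6 or more in EC and at 897.3 or less in EN. Psmd14 lies among the lower lid genes in EC and below all of them in EN.

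Of the immune-type catalytic genes, Psmb8 and Psmb9 were low compared with their standard partners, Psmb10 was nearer to its own, and no change in the 3 passed (limma). That threshold was passed by 7.24% of all genes tested as higher and by 7.14% as lower. At an unadjusted p under 0.05, 2 of the 3 were higher and 0 lower (all genes tested: 16.1% higher and 16.2% lower). Psmb8, Psmb9 and Psmb10 encode the subunits that replace the products of Psmb5, Psmb6 and Psmb7 in the immunoproteasome, which interferon induces. Psmb8 (chromosome 20, 3990613 to 3993769) was at 13, 11.1 and 10.2 FPKM in EC and at 14.1, 13.4 and 14.6 FPKM in EN. All EN libraries were above all EC libraries, narrowly in the case of EC replicate 1, and the log2 change was 0.28 (SE 0.088, limma adjusted p = 0.076). It passed with limma voom on the reads, at an adjusted p of 0.035. Psmb9 (chromosome 20, 3973420 to 3978845) was at 9.18, 7.80 and 9.72 FPKM in EC and at 11.8, 8.49 and 10.7 FPKM in EN. Psmb10 (chromosome 19, 37909546 to 37912027) was at 32.8, 26.8 and 26.3 FPKM in EC and at 34.5, 32.0 and 34.5 FPKM in EN. Both overlapped between the groups, with log2 changes of 0.19 and 0.23 and limma adjusted p of 0.338 and 0.115.

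Read against its partner, Psmb8 stood at 14.7, 12.4 and 11.5% of the Psmb5 level in EC and at 15.3, 13.7 and 15.4% in EN. Psmb9 stood at 9.90, 8.84 and 10.95% of Psmb6 in EC and at 12.03, 8.59 and 10.2% in EN. In both pairs the groups overlapped. Psmb10 was at 59.6 to 107.0% of Psmb7 in EC and at 67.9 to 77.5% in EN, the highest value being that of EC replicate 1, where Psmb7 was low. The core genes of thymus and testis were at the limit of detection. Psmb11, known from thymic epithelium, had 0 reads in each EC library and 1, 0 and 3 reads in EN. A count of 0 allows up to 0.215 FPKM in EC replicate 1 (3 reads, counting error only). Psma8, known from testis, had 2, 0 and 2 reads in EC and 5, 3 and 5 reads in EN, so each EN library was above each EC library by a read or more. Neither gene was tested, and these numbers are too small to size a change.

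The base, which unfolds substrates, was nearly level. Of its 9 genes 1 rose, 0 fell and 8 did not pass (limma), against 7.24% of all genes tested higher and 7.14% lower. Of all genes averaging at least 20 FPKM, 23.9% passed in either direction. At an unadjusted p under 0.05, 3 of the 9 were higher and 1 lower (all genes tested: 16.1% higher and 16.2% lower). Voom called 3 higher and 1 lower (all genes: 11.4% and 7.84%). It had a median log2 change of 0.01 that ran from -0.00 to 0.05 over the alternatives. The riser was Psmd4, which encodes a receptor for ubiquitin chains (chromosome 2, 196198038 to 196207560). It was at 64.5, 62.2 and 58.2 FPKM in EC and at 74.3, 68.5 and 70.0 FPKM in EN. The groups did not overlap, and the log2 change was 0.20 (SE 0.052, limma adjusted p = 0.047). Psmd4 passed without EC replicate 1 (0.043) but not without any of the 5 other libraries, where the highest adjusted p was 0.131. Without the filter or the variance trend it was at 0.084 and 0.085.

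Of the 6 ATPase genes of the base, none passed. Psmc5 and Psmc3 were above in each EN library, at log2 changes of 0.13 and 0.12 (limma adjusted p = 0.056 and 0.116), and Psmc6 was below in each, at -0.17 (0.061). Psmc3 was at 176.4, 182.6 and 169.5 FPKM in EC and at 183.2, 199.3 and 193.2 FPKM in EN. In that gene EC replicate 2 and EN replicate 1 nearly met. Psmc5 sat at the edge of the threshold: it passed in 6 alternatives, with adjusted p of 0.028 with voom and 0.035 with quantile normalization. Psmc6 passed among genes averaging at least 5 FPKM (0.047), with protein-coding models only (0.049) and with voom (0.045). Psmc3 passed with quantile normalization (0.049) and with voom (0.033). Psmc1, Psmc2 and Psmc4 overlapped between the groups, at log2 changes of 0.01, -0.04 and -0.06. The scaffold genes Psmd1 and Psmd2 had log2 changes of -0.07 and 0.07, with no overlap for Psmd2.

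In the lid, Psmd14 fell by far more than its neighbours in the complex. Of the 8 genes 1 rose, 1 fell and 6 did not pass (limma), with a median log2 change of -0.03. Among all genes tested 7.24% rose and 7.14% fell, and 23.9% of those averaging at least 20 FPKM passed in either direction. Psmd14 encodes the metalloprotease also called RPN11, which cuts the ubiquitin chain from a substrate as it enters the proteasome. It was at 53.2, 54.0 and 59.9 FPKM in EC (1300, 1291 and 1529 reads) and at 31.0, 27.4 and 28.9 FPKM in EN (859, 864 and 758 reads). The groups lay far apart, with the lowest EC library above the highest EN library by several times the spread in either group. The mean went from 55.7 ± 3.65 to 29.1 ± 1.81 FPKM (SD, n = 3 each), 1.92-fold lower, and the log2 change was -0.91 (SE 0.064, limma adjusted p = 8.85e-04). Psmd14 ranked 111 of 12198 genes by the size of its change and 26 by its p-value. With 1 library left out in turn the log2 change stayed between -0.96 and -0.86, and the limma adjusted p between 0.0048 and 0.0082. Over the other alternatives the adjusted p was 3.26e-05 to 0.0082.

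Psmd14 lies on chromosome 3, 47578384 to 47673338 on the plus strand of Rnor_6.0, and no other gene model of the table overlaps it. Upstream, the gene model of Tank ends 62683 bases away. It averaged 13.5 ± 1.73 FPKM in EC and 12.3 ± 1.31 FPKM in EN (SD, n = 3 each), and its log2 change of -0.12 did not pass (SE 0.106, limma adjusted p = 0.483). Downstream, Tbr1 begins 4381 bases after Psmd14 (both genes were named after their values were seen). Against the median of the 7 other lid genes, Psmd14 stood at 0.625, 0.658 and 0.729 in EC and at 0.398, 0.340 and 0.337 in EN. The 7 others changed by -0.11 to 0.13 on the log2 scale.

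Psmd3, which encodes a structural subunit of the lid (chromosome 10, 86599220 to 86611188), rose by 0.13 on the log2 scale (SE 0.033, limma adjusted p = 0.047). It was at 85.2, 85.4 and 83.0 FPKM in EC and at 91.5, 91.6 and 93.7 FPKM in EN, with no overlap and little spread in either group. The call was lost in all 6 fits with 1 library left out (limma adjusted p of 0.067 to 0.143), and with quantile normalization (0.059), no filter (0.051) and no variance trend (0.103). The other 6 lid genes did not pass. Psmd7, the partner that pairs with Psmd14 in the complex, was at 88.3, 87.3 and 87.3 FPKM in EC and at 77.9, 80.5 and 85.6 FPKM in EN. It was lower in every EN library, with EN replicate 3 close to EC, and its log2 change was -0.11 (SE 0.042, limma adjusted p = 0.134). Psmd11 was also below in each EN library but by only 0.04 on the log2 scale. Psmd6, Psmd8, Psmd12 and Psmd13 overlapped between the groups, at log2 changes of -0.06, -0.03, 0.03 and 0.08.

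**Figure D3:**
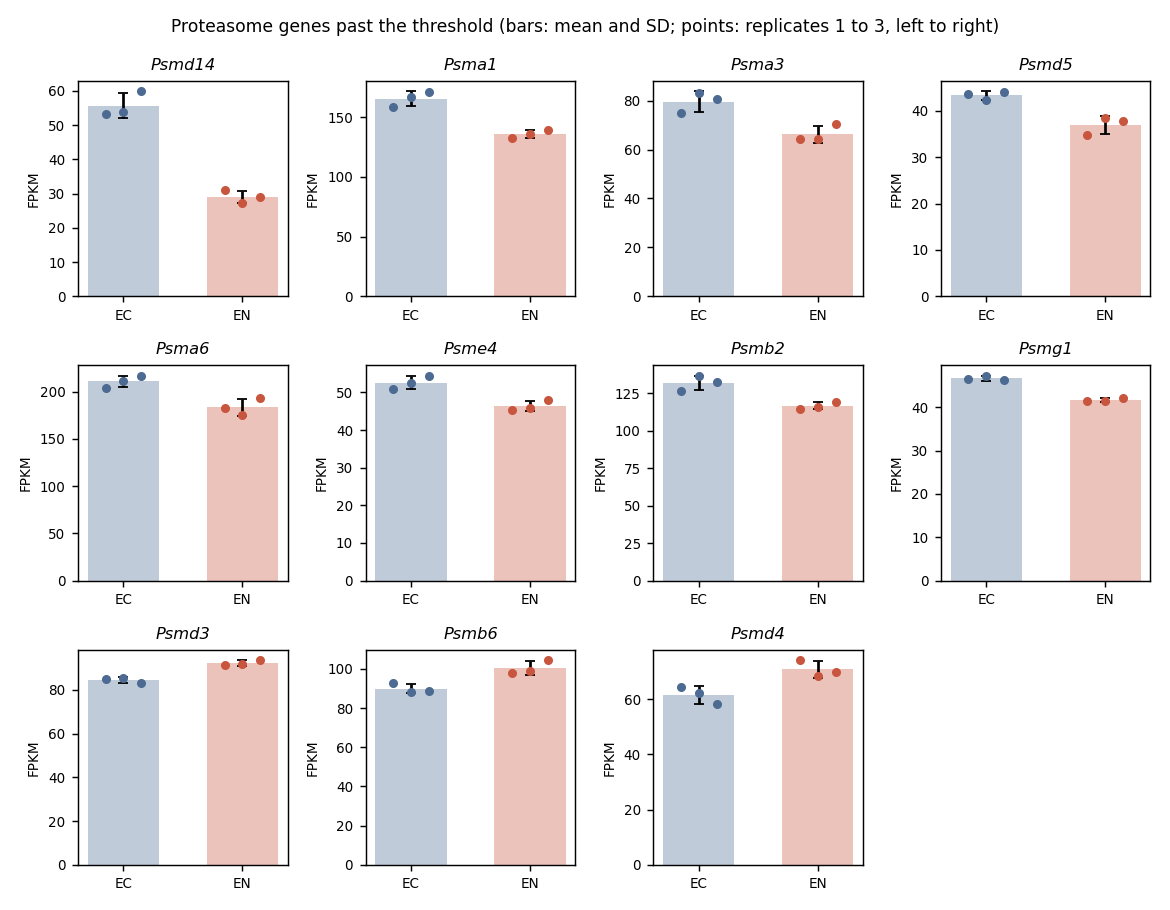
FPKM of the 11 proteasome genes past the threshold, ordered from the largest decrease to the largest increase. Bars are means with SD (n = 3), from 0, and points are replicates 1 to 3 from left to right. In each panel the 3 EN points lie on 1 side of the 3 EC points, and the gap is widest for Psmd14.

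Among the 3 tested genes of other caps and regulators, Psme4 fell and 2 did not pass (limma), with a median log2 change of 0.02. Of all genes tested 7.24% rose and 7.14% fell. Psme4 encodes PA200, a nuclear activator of the core (chromosome 14, 115166416 to 115269056). It was at 50.9, 52.5 and 54.5 FPKM in EC and at 45.4, 45.8 and 47.9 FPKM in EN. Each EN library was below each EC library, and the level fell by 0.18 on the log2 scale (SE 0.042, limma adjusted p = 0.036). The call was lost with EC replicate 2 or 3 or EN replicate 1 or 2 left out (adjusted p up to 0.124), without the filter (0.055) and without the variance trend (0.071). Psme2, a subunit of the interferon-inducible activator PA28, and the regulator Psmf1 (PI31) each had a log2 change of 0.02. Psme2 was at 52.8, 53.2 and 51.8 FPKM in EC and at 54.8, 52.1 and 52.9 FPKM in EN, which overlap. Psme1, which encodes the partner of Psme2 in PA28, was listed with 2, 0 and 1 reads in EC and with none in EN, where 0 reads allow up to 0.171 FPKM in EN replicate 1 (3 reads). No change in it was detectable. The gene model of Emc9 overlaps Psme1 on the other strand over 2574 bases and was itself at 0.383 ± 0.179 FPKM in EC and 0.476 ± 0.055 FPKM in EN (SD, n = 3 each; named after its values were seen). The part of this overlap in the low number of Psme1 was not tested. Psme3 was not matched by name and was not analysed here.

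Of the 7 assembly chaperone genes, 2 fell, 0 rose and 5 did not pass (limma), against 7.24% of all genes tested higher and 7.14% lower. At an unadjusted p under 0.05, 3 of the 7 were lower and 1 higher (all genes tested: 16.1% higher and 16.2% lower). Voom called 1 lower and 0 higher (all genes: 7.84% and 11.4%). They had a median log2 change of -0.16 (-0.19 to -0.04 over the alternatives). Psmg1, which belongs to the chaperone pair that starts the alpha ring (chromosome 11, 36327800 to 36337256), was at 46.5, 47.4 and 46.2 FPKM in EC and at 41.4, 41.6 and 42.2 FPKM in EN. The groups were tight and did not overlap, and the log2 change was -0.16 (SE 0.034, limma adjusted p = 0.028). Its partner Psmg2 was at 23.6, 26.2 and 26.9 FPKM in EC and at 21.3, 21.2 and 23.0 FPKM in EN, lower in every EN library. That change of -0.22 did not pass (SE 0.061, limma adjusted p = 0.058), but it passed among genes averaging at least 5 FPKM (0.041) and with protein-coding models only (0.045). Psmd5, a chaperone of the base (chromosome 3, 13916203 to 13933658), was at 43.7, 42.3 and 44.0 FPKM in EC and at 34.7, 38.4 and 37.8 FPKM in EN. EN replicate 1 was the lowest, no libraries overlapped, and the log2 change was -0.23 (SE 0.049, limma adjusted p = 0.028).

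Psmg1 and Psmd5 kept an adjusted p under 0.05 only without EN replicate 3 (0.034 and 0.035). Without the other 5 libraries it was up to 0.110 for Psmg1 and up to 0.096 for Psmd5. Psmg1 was also lost with voom (0.101) and without the variance trend (0.061), and Psmd5 without the filter (0.051) and without the variance trend (0.057). The other pair of core chaperones went the other way in value: Psmg3 and Psmg4 had log2 changes of 0.09 and 0.24 and overlapped between the groups. Psmg4 was at 22.2, 20.9 and 20.6 FPKM in EC and at 29.6, 25.7 and 21.0 FPKM in EN, so that EN replicate 3 was level with EC. Psmd9, another base chaperone, was above in each EN library, at 28.4 ± 1.06 FPKM in EC and 33.3 ± 3.56 FPKM in EN (SD, n = 3 each), with a log2 change of 0.22 (limma adjusted p = 0.096). Psmd10, a base chaperone also called gankyrin, was the lowest of the tested genes, at 2.97, 2.14 and 3.31 FPKM in EC and 3.05, 2.30 and 1.84 FPKM in EN. It rested on 137 reads over all libraries, and its log2 change of -0.17 had an SE of 0.175.

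Levels differed more between the parts of the complex than between the groups. The median over tested genes was 144.4 FPKM in the alpha ring and 124.2 in the standard beta ring. It was 97.8 in the base, 81.1 in the lid, 49.5 in the alternative caps, 30.8 in the assembly chaperones and 12.7 in the immune-type core. The highest single genes after Psma6 were Psmc3 at 184.0 FPKM and Psmb4 at 174.8 FPKM, averaged over all libraries. Neighbours in this order were close: Psmc3 overlapped Psma6, and Psmb4 overlapped Psmc3, across the 6 libraries. In EC, Psmd14 was near Psmd11 (49.9 ± 0.546 FPKM), the lowest of the other lid genes, and in EN it was below Psmd11 (48.5 ± 0.661 FPKM; SD, n = 3 each). Psmc3ip, which the name rule also takes, encodes a partner of meiotic recombinases and no part of the proteasome. It was at 20.3 ± 0.249 FPKM in EC and 21.6 ± 1.08 FPKM in EN (SD, n = 3 each; log2 change 0.09, limma adjusted p = 0.256).

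**Figure D4:**
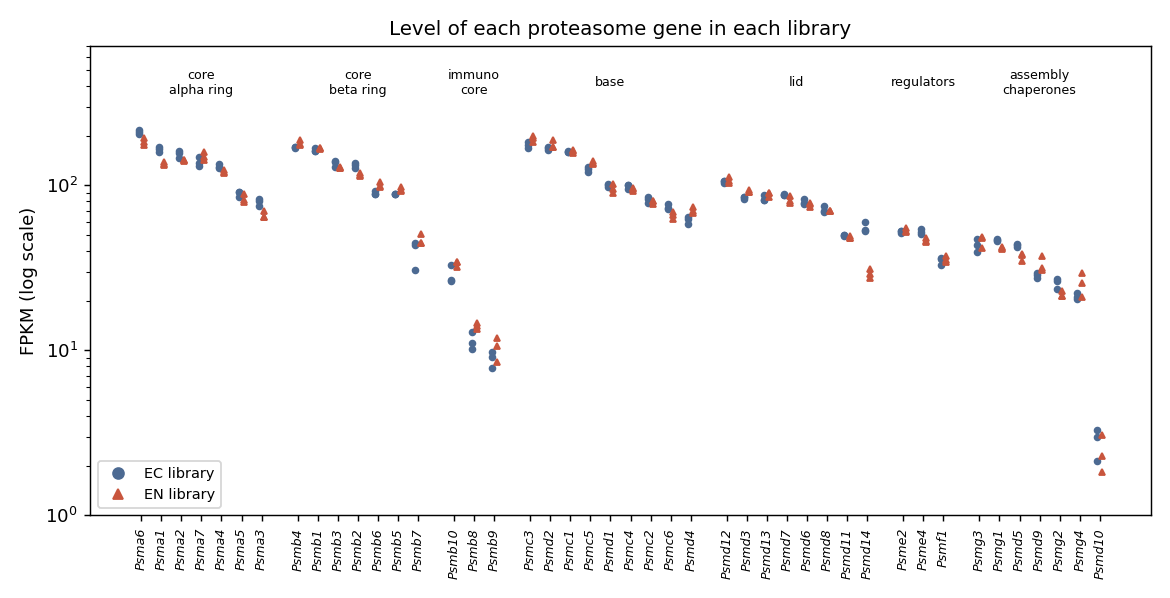
FPKM of each tested proteasome gene in each library on a log scale, by class and ordered by level within the class, with EC libraries as circles and EN libraries as triangles. Class medians fall from 144.4 FPKM in the alpha ring to 12.7 in the immune-type core. Circles and triangles lie close together for nearly all genes, and Psmd14 in the lid shows the clearest separation.

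Partners of the proteasome whose names fall outside the rule were read from a fixed list. Of 12 measured genes 1 rose, 2 fell and 9 did not pass (limma), with a median log2 change of -0.03. Among all genes tested 7.24% rose and 7.14% fell, and 23.9% of those averaging at least 20 FPKM passed in either direction. Uchl5, which encodes a second ubiquitin-removing enzyme of the cap, was at 22.6, 24.0 and 22.9 FPKM in EC and at 16.6, 18.5 and 19.9 FPKM in EN. It was lower in every EN library and fell by 0.32 on the log2 scale (SE 0.069, limma adjusted p = 0.028). Usp14, the remaining deubiquitinase of the cap, was at 84.5, 93.5 and 95.8 FPKM in EC and at 72.4, 79.1 and 85.5 FPKM in EN. EN replicate 3 was just above EC replicate 1, and the log2 change of -0.21 did not pass (SE 0.073, limma adjusted p = 0.1003). It passed without EN replicate 3 (0.048). Zfand5, an activator of the proteasome, fell from 52.6 ± 2.93 to 42.9 ± 1.04 FPKM, and the heat-inducible Zfand2a rose from 26.8 ± 0.238 to 31.0 ± 0.713 FPKM (SD, n = 3 each; limma adjusted p = 0.017 and 0.021). Uchl5, Zfand5 and Zfand2a did not pass when EC replicate 2 or 3 or EN replicate 1 or 2 was left out (limma adjusted p up to 0.0996, 0.066 and 0.087). Uchl5 was lost without the filter and without the variance trend too. Adrm1, the ubiquitin receptor that anchors Uchl5, was at 80.0, 76.6 and 76.4 FPKM in EC and 89.2, 87.1 and 77.9 FPKM in EN, which overlap (log2 change 0.12, adjusted p = 0.186).

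Pomp, the maturation factor of the core, could not be read with confidence. Its gene model had 110 reads over all libraries and was at 1.47, 0.846 and 0.529 FPKM in EC and at 1.95, 2.14 and 2.14 FPKM in EN. EN was above EC in every library, and the log2 change of 0.69 did not pass (SE 0.191, limma adjusted p = 0.056). It passed with protein-coding models only (0.036), with voom on the reads (0.049) and without EC replicate 1 (0.024). A second model described in the table as similar to the same protein, LOC100911238, held far more reads. It was at 56.7, 29.2 and 116.2 FPKM in EC and at 89.4, 61.0 and 45.3 FPKM in EN, a spread within each group larger than the difference (named after its values were seen). Reads may be divided between these models, whose sequences were not compared.

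In the list of NRF1 and related factors, 2 of 9 measured genes rose, 0 fell and 7 did not pass (limma). That compares with 7.24% of all genes tested higher and 7.14% lower. The median log2 change was 0.14. At an unadjusted p under 0.05 4 were higher and 0 lower (all genes tested: 16.1% higher and 16.2% lower), and voom called 3 higher and 0 lower (all genes: 11.4% and 7.84%). Nfe2l1 itself was at 50.9, 52.5 and 49.0 FPKM in EC and at 48.2, 49.4 and 51.5 FPKM in EN. The groups overlapped, and the log2 change was -0.03 (SE 0.044, limma adjusted p = 0.675). Ddi2, the protease that activates NRF1, and Ngly1, which removes the sugars of NRF1, did not pass, at log2 changes of 0.14 and -0.05. Ddi2 was above in each EN library and passed with limma voom on the reads (adjusted p = 0.022). The small MAF proteins are binding partners of this family. Maff was at 15.3, 15.5 and 14.8 FPKM in EC and at 20.6, 20.6 and 20.1 FPKM in EN, well apart. It rose by 0.41 on the log2 scale (SE 0.042, limma adjusted p = 0.0045) and passed with each library left out. Mafg, at 27.8, 25.2 and 25.5 FPKM in EC and 32.8, 33.0 and 30.0 FPKM in EN, rose by 0.28 (SE 0.058, limma adjusted p = 0.025) but not with EC replicate 2 or 3 or EN replicate 1 or 2 left out (up to 0.096), nor without the variance trend or the filter. Mafk had a log2 change of 0.17 and did not pass. Nfe2l2, the related factor of the antioxidant response, was below in each EN library at -0.08 without passing.

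Of 12 measured genes of ubiquitin supply and delivery, 0 passed (limma), against 7.24% of all genes tested higher and 7.14% lower. The median log2 change was 0.07. At an unadjusted p under 0.05, 4 of the 12 were higher and 1 lower (all genes tested: 16.1% higher and 16.2% lower). With voom on the reads 4 passed as higher (11.4% of all genes), Rps27a and Ubqln4 among them, and Uba6 passed as lower (7.84% of all genes). Rps27a, which encodes ubiquitin fused to a ribosomal protein, was at 611.3, 498.9 and 334.9 FPKM in EC and at 699.0, 720.0 and 768.3 FPKM in EN. Every EN library was above every EC library, with a wide spread in EC, and the log2 change of 0.64 did not pass (SE 0.197, limma adjusted p = 0.072). Vcp, which extracts tagged proteins for the proteasome, was at 203.4 ± 3.67 and 194.2 ± 11.2 FPKM, which overlap.

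Genes that carry proteasome products to the cell surface were read beside the immune-type subunits. Of 7 measured genes 1 rose, 1 fell and 5 did not pass (limma), against 7.24% of all genes tested higher and 7.14% lower. The median log2 change was 0.03 and ran from -0.02 to 0.09 over the alternatives. Tap1, a peptide transporter subunit whose gene lies between Psmb9 and Psmb8, was at 8.26, 8.85 and 8.14 FPKM in EC and at 11.04, 11.09 and 9.51 FPKM in EN. It was above in every EN library and rose by 0.29 on the log2 scale (SE 0.074, limma adjusted p = 0.044). When a library was left out, it passed only without EN replicate 3 (0.023). The Tap1 call was also lost without the filter and without the variance trend (adjusted p up to 0.091). B2m, the light chain of class I molecules, went the other way, from 245.6, 260.4 and 254.4 FPKM to 211.0, 209.5 and 188.9 FPKM. Each EN library was below each EC library, and the level fell by 0.32 on the log2 scale (SE 0.052, limma adjusted p = 0.014), with adjusted p of 0.064 without EC replicate 2 and 0.060 without EC replicate 3. Irf1, which relays interferon signals, had a log2 change of 0.03 and overlapped between the groups.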

How the data were processed

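Total RNA of 6 PC12-labelled libraries (3 EC, 3 EN) was taken with Trizol and made into libraries with an Illumina TruSeq kit, per the labels' protocols. The authors deposited 1 table of FPKM per gene model, with symbols, coordinates, lengths and biotypes. HISAT2 2.0.5 and build Rnor_6.0 were used, per the submitters' processing notes. The counting tool, annotation release and strand setting were not given in the sources used here. FPKM times length was a whole multiple of 1 step in 100% of non-zero values (within 0.001), which gave back whole reads. Models without a symbol held 0.808 to 0.848% of reads and stayed in the tests.

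The test was limma 3.58.1 in R 4.3.3 with a mean-variance trend on log2(FPKM + 1), group as the only term, for genes averaging at least 1 FPKM, two-sided, Benjamini-Hochberg adjusted. It was checked on simulated data. All 48 members could be named. Values of every library were given for members past the threshold, the immune-type core genes, the 3 highest and 3 lowest, and of the other lists for Nfe2l1, Pomp, Adrm1 and members past the threshold; further genes were detailed after their values were seen. Of 46 entries in the 4 other lists, 41 matched a symbol, 1 (Sem1) matched an older symbol in the RefSeq table of GRCr8, and 4 did not match. Tap2 and Nfe2l3 have 2 models, of which the higher was used. Some genes of these lists and of the marker lists count in the totals but are not reported here by name. The members and lists were chosen with earlier results of these data known.

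Alternatives were pseudocounts of 0.1 and 0.5, no filter, a minimum average of 5 FPKM, TPM in place of FPKM, quantile normalization, median centring, a block for the replicate number, no variance trend, limma voom on the whole reads, protein-coding models only and each library left out. A lowess fit (span 0.5) that took out trends with gene length was added after the data were seen. Groups of 3 are too small for the check of samples far from their group.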

Additional observations from a re-analysis of the deposited data

How the results depend on the processing

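Psmd14 passed in each alternative run, and of the 45 tested members none that passed changed sign. Over all genes, 883 were higher and 871 lower, against 399 and 467 with no filter, 510 and 509 without the variance trend and 1387 and 956 with voom on the reads. With 1 library left out the numbers were 143 to 1030 higher and 180 to 1029 lower. Of the members, 3 were higher and 8 lower, against 0 and 3 with no filter, 0 and 2 without the variance trend, and 6 higher with voom. With 1 library left out 0 to 4 members were higher and 1 to 11 lower. No sign of pairing by replicate number was seen in the correlation of same-numbered libraries' deviations from their group means. It was 0.088, -0.095 and -0.020 for numbers 1 to 3. Groups of 3 libraries are too small for these values to settle whether the samples were paired. With the replicate block 994 genes were higher and 913 lower, and 1 and 10 members, with Psmb6 and Psmd3 lost (adjusted p = 0.063 and 0.068) and Psmc6 and Psmg2 gained (0.041 and 0.043). In the other lists the block gained Sem1 (log2 change 0.25, 0.033) and Usp14 (-0.21, 0.026), and it changed no other call among the genes listed. The causes of these shifts were not tested. Psmd10, Pomp, Psmb11, Psma8 and Psme1 rest on few reads, which limits their precision.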
